A study of Saccharomyces cerevisiae with 16 samples.

Results

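Nitrogen use genes of budding yeast encode the proteins that take up and break down nitrogen compounds: ammonium, amino acids, allantoin, urea, proline, GABA (γ-aminobutyrate), arginine and peptides. The 35 genes described here were chosen by name and role, without the GATA transcription factors that control many of them, and were matched to the array by the systematic name of the open reading frame. All 35 were found among the 6225 genes on the array, and all 35 were among the 6046 genes tested. They fall into 9 roles: ammonium and general amino acid uptake (4 genes), allantoin and urea (9), their regulators (2), ammonium assimilation and glutamate (5), proline (4), GABA (4), arginine (2), peptides and vacuolar proteases (4), and URE2.

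Yeast uses good nitrogen sources such as glutamine or ammonium first and keeps the genes for poorer sources low while these last, a control known as nitrogen catabolite repression. When good sources run short, the GATA activators Gln3 and Gat1 enter the nucleus and raise transcription of permease and catabolic genes, while Ure2 is known to hold Gln3 in the cytoplasm in rich conditions and the GATA repressor Dal80 competes for the same sites. Several pathways also need their own inducer: allophanate acts through Dal81 and Dal82, proline through Put3, and GABA through Uga3.

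The 16 two-colour arrays followed 1 strain, Z3pr-ROF1, in duplicate phosphate-limited chemostats (cultures A and B) at 0, 5, 10, 15, 20, 30, 45 and 90 min after 1 µM β-estradiol, with 1 array per culture and time. In this S288C strain the Z3 promoter, driven by the hormone-activated factor Z3EV, replaces the native promoter of ROF1, a gene for a putative WOPR-domain transcription factor. The strain has URA3 beside the promoter, natMX beside a functional HAP1, and ura3∆0, his3∆1, can1∆::STE2pr-Sphis5 and lyp1∆, at all 8 times. RNA of each sample was labelled with Cy5 (red) and hybridised against RNA of the strain DBY12001 labelled with Cy3 (green), and the growth conditions of that reference are not given in the sources used here. A strain without the ROF1 construct was not followed. Effects of Rof1, of the URA3 marker that rose with ROF1, of β-estradiol and of time in the chemostat therefore cannot be told apart.

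The induced gene went with the labels, and the deleted genes with the study's genotype. ROF1 was under the signal floor of 50 at 0 min and then higher at all 7 later times, by 3.43 to 4.36 on the log2 scale, a size that depends on the floor. At 0 min the log2 ratio to the reference was -5.09 for CAN1, -6.03 for LYP1 and -6.82 for HIS3, whose red signal was under the floor, so that its size too is set by the floor. URA3, the marker beside the Z3 promoter, was also higher at all 7 later times. Its log2 change from 0 min was 2.91 and 2.77 at 5 min and 2.96 and 3.14 at 90 min in cultures A and B. Median red signal was 931 to 1417 and 90.5% to 97.4% of spots were well above background. Both lowest values were those of the 10 min array of culture B. The next lowest, 1203 and 93.7%, were those of 45 min of culture A. Spots flagged as outliers were most frequent at 15 min of culture B (183). Each culture lay on its own slide and each time held the same position on both slides, so culture cannot be told apart from slide, nor time from position. Values are log2 ratios of red over green, a change is the difference from 0 min of the same culture, and the error is the standard error (SE) of the limma fit over n = 2 cultures. Passing the test means an adjusted p under 0.05 over all genes. An array gives a gene's share of the labelled RNA, so fewer cells expressing a gene and less RNA per cell cannot be told apart.

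The first question was when and in which direction these genes moved. By 90 min most of them were higher: 22 of the 35 genes rose (62.9%) and 3 fell (8.57%), while 20.7% of all genes tested rose and 20.0% fell. The median change of the 35 genes at 90 min was 0.19, against 0.00 for all genes. All 35 genes were well above background on every array in both colours. The 6046 genes tested include 389 with red at the floor on almost all arrays, which could hardly change. Shares of all genes are not given without these dim genes. The genes that rose spanned uptake (GAP1, MEP2), allantoin and urea use (all 9 genes), proline use (PUT1, PUT2, PUT4), arginine breakdown (CAR1, CAR2) and glutamine synthesis (GLN1). The 3 that fell were the ammonium permease genes MEP1 and MEP3 and the glutamate dehydrogenase gene GDH3. All 25 moved in the same direction in both cultures. Over the time course as a whole, 25 of 35 genes (71.4%) passed the F test for any change, beside 50.6% of all genes. Only PUT1 and PUT4 passed with a change of at least 2-fold, both upwards at 90 min; 0.380% of all genes rose and 0.992% fell that far at 90 min, and 1.54% of all genes did either at 1 or more times.

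Before 90 min the counts were smaller. At 5 min 2 genes fell and 2 rose, where 9.54% of all genes fell and 10.1% rose. At 10 min 1 gene fell and 3 rose, beside 12.9% and 11.6% of all genes. These early shares of the 35 genes, 2.86% to 8.57%, were not above those of all genes. At 15 min 0 of the 35 genes fell by limma (3 at an unadjusted p under 0.05) and 6 rose (all genes 9.84% lower and 9.01% higher), and at 20 min 1 fell and 8 rose (7.56% and 7.96%). At 30 min 0 fell by limma (4 at an unadjusted p under 0.05) and 5 rose (5.94% and 5.52% of all genes). The number then grew to 13 rises and 2 falls at 45 min, against 8.78% and 7.96% of all genes. The counts before 90 min moved with single arrays: leaving out 1 array gave 2 to 5 calls at 5 min, 3 to 8 at 10 min, 3 to 11 at 15 min, 3 to 12 at 20 min, 1 to 10 at 30 min and 5 to 20 at 45 min. At 45 min, 15 calls became 6 without 0 min of culture A, 7 without 0 min of culture B, 5 without 45 min of culture A and 6 without 45 min of culture B. At 90 min the count stayed between 20 and 26. The calls that a single array ended at 90 min were those of the small rises of MEP2, DUR1,2, DAL81, DAL82 and PRB1.

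**Figure D1:**
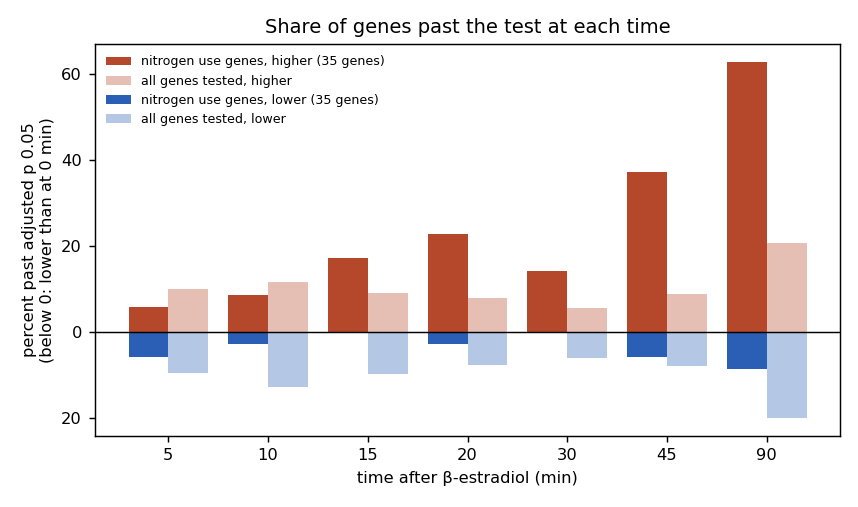
Share of genes past an adjusted p of 0.05 at each time after β-estradiol (x axis, min), in percent, drawn upwards for genes higher than at 0 min and downwards for genes lower. Solid bars are the 35 nitrogen use genes and pale bars all genes tested; at 90 min the solid bar reaches 62.9% for higher genes against 20.7% of all genes.

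Proline use gave the largest rises. PUT4 encodes the high-affinity proline permease, and its change in cultures A and B was 0.27 and 0.26 at 5 min, 0.34 and 0.41 at 10 min, 0.35 and 0.44 at 15 min, 0.34 and 0.28 at 20 min, 0.51 and 0.45 at 30 min, 0.62 and 0.68 at 45 min, and 1.1 and 1.03 at 90 min. Every later array was above its 0 min array, and PUT4 was the only one of the 35 genes to pass the test at all 7 times. The 90 min mean was 1.07 ± 0.04 (SE, n = 2, 2.10-fold, adjusted p = 9.6e-07), and 60.8% of that log2 change was present at 45 min.

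PUT1 encodes proline oxidase, the first, mitochondrial step of proline breakdown. Its change was 0.11 and -0.03 at 5 min, 0.11 and 0.17 at 10 min, 0.16 and 0.36 at 15 min, 0.18 and 0.14 at 20 min, 0.41 and 0.18 at 30 min, 0.54 and 0.49 at 45 min, and 1.04 and 1.12 at 90 min. The cultures crossed up to 30 min and both were clearly above 0 min from 45 min, when PUT1 first passed the test (0.52 ± 0.09, adjusted p = 0.0057). At 90 min the mean was 1.08 ± 0.09 (2.11-fold, adjusted p = 4.3e-05). PUT2, the gene for the second enzyme, which makes glutamate, rose less, by 0.27 and 0.22 in cultures A and B (0.24 ± 0.05, adjusted p = 0.0036). PUT2 did not pass the F test over all times (adjusted p = 0.054). PUT3, the gene for the proline-responsive activator, did not pass at any time against 0 min, with 0.12 and 0.03 at 90 min. Both 2-fold rises thus lay in the proline pathway. Its regulator gene PUT3 passed at no single time against 0 min, but passed the F test over all times (adjusted p = 0.018).

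**Figure D2:**
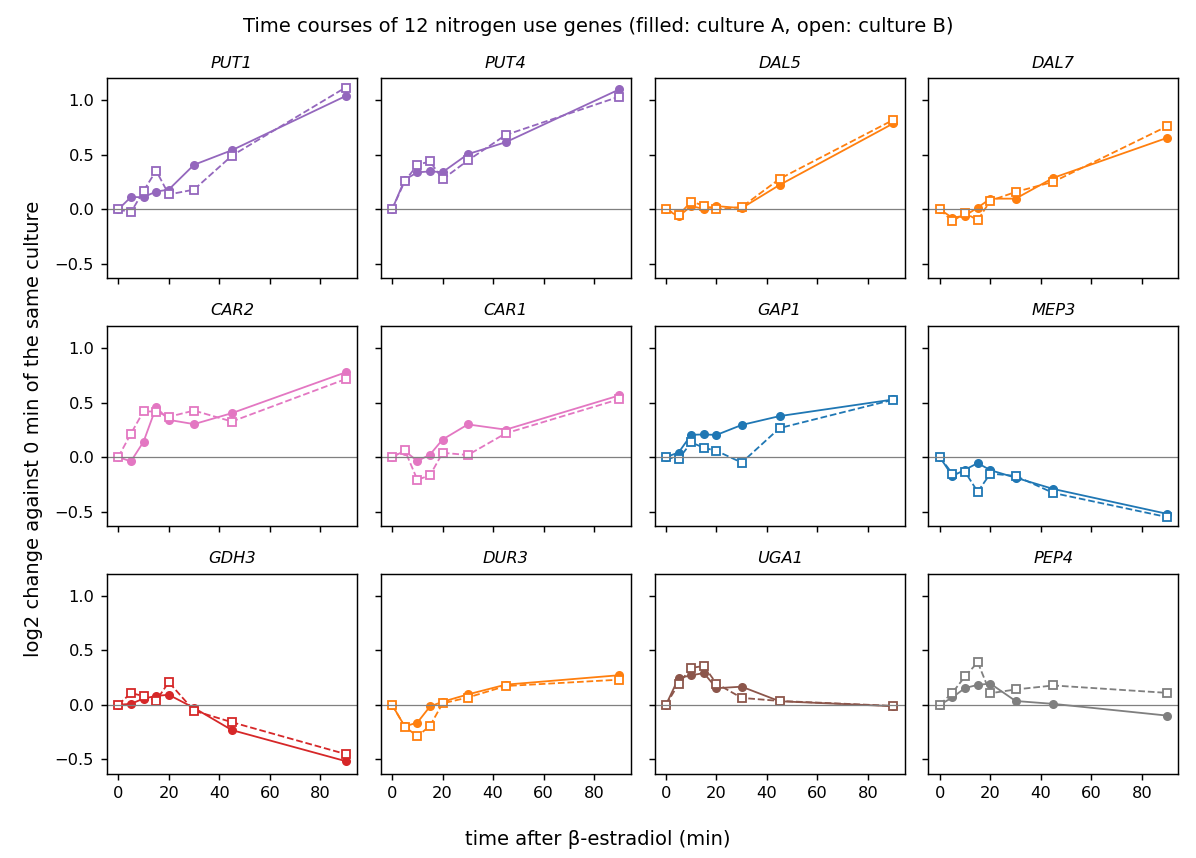
Log2 change from 0 min of the same culture (y axis) against time after β-estradiol (x axis, min) for 12 nitrogen use genes; filled circles and solid lines are culture A, open squares and broken lines culture B. PUT1 and PUT4 end above 1.00 in both cultures, MEP3 and GDH3 end between -0.55 and -0.45, DUR3 starts below 0 and ends above it, and UGA1 is highest at 15 min and back at -0.01 by 90 min.

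All 9 allantoin and urea genes rose at 90 min in the ratio to the reference, with a median change of 0.37 and a range of 0.17 to 0.80. With the red channel alone, 8 of them were higher and 3 passed (DAL2, DAL5 and DAL7), while DAL1 was at -0.06. DAL5 encodes the permease for allantoate and ureidosuccinate. Its change was -0.06 and -0.05 at 5 min, 0.03 and 0.07 at 10 min, 0.00 and 0.03 at 15 min, 0.03 and 0.00 at 20 min, 0.01 and 0.02 at 30 min, 0.22 and 0.28 at 45 min, and 0.79 and 0.82 at 90 min. The 2 cultures differed by at most a few hundredths, and the gene stayed near its 0 min level for 30 min before it rose. The 90 min mean was 0.80 ± 0.02 (1.75-fold, adjusted p = 4.5e-08), of which 2.05% was present at 30 min and 31.4% at 45 min. DAL7, one of the yeast malate synthase genes, rose by 0.66 and 0.76 at 90 min (0.71 ± 0.05, adjusted p = 1.2e-05). At 45 min it stood at 0.29 and 0.25.

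The other allantoin genes moved by smaller amounts. DAL1, the allantoinase gene of the first step, was 0.34 and 0.40 higher at 90 min, but with the red channel alone it stood at -0.06 (adjusted p = 0.91). At 15 min it was the one allantoin gene past the test (0.15 ± 0.03, adjusted p = 0.016), a call lost without 0 min of culture A or B or 15 min of culture A and turned to -0.14 with the red channel alone. DAL2, allantoicase, was 0.46 and 0.40 higher. DAL3, ureidoglycolate lyase, was 0.50 and 0.42 higher. The allantoin permease gene DAL4 differed more between cultures, at 0.28 in A and 0.45 in B. Each of the 4 genes passed at 90 min, with adjusted p-values from 3.8e-05 to 0.00037.

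DAL1, DAL4, DAL2, DCG1, DAL7 and DAL3 are 6 neighbouring genes on chromosome IX, with no other annotated gene between them in the RefSeq R64 gene table. Across this cluster, in gene order, the 90 min changes were 0.37, 0.36, 0.43, 0.29, 0.71 and 0.46. All 6 rose, but in unequal measure, and DCG1, a gene of unclear function, took another path to its end point. DCG1 fell at 5 min by 0.18 and 0.23 and at 20 min by 0.21 and 0.18 in cultures A and B, and was 0.30 and 0.29 higher at 90 min. The 5 min call was lost without 0 min of culture A or B or 5 min of culture B (adjusted p 0.052 to 0.073), and the 20 min call without any 1 array of 0 or 20 min (0.052 to 0.097). DAL5, outside the cluster, rose more than any gene within it.

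Urea uses a permease, Dur3, and the bifunctional urea amidolyase Dur1,2. DUR3 changed direction: it was -0.20 and -0.20 at 5 min, -0.16 and -0.29 at 10 min, -0.02 and -0.19 at 15 min, 0.03 and 0.01 at 20 min, 0.10 and 0.07 at 30 min, 0.18 and 0.17 at 45 min, and 0.27 and 0.23 at 90 min. Both cultures were low up to 10 min and high from 45 min. The fall passed at 10 min (-0.23 ± 0.04, adjusted p = 0.0074), though without 0 min of culture B it was -0.20 with an adjusted p of 0.059 and without 10 min of culture B -0.18 with 0.061. The 5 min call was lost without 0 min of culture B or 5 min of culture A, and the 45 min call without any 1 array of 0 or 45 min. The 90 min mean was 0.25 ± 0.04 (adjusted p = 0.0027). DUR1,2 rose by 0.19 and 0.15 at 90 min (0.17 ± 0.05, adjusted p = 0.019) and passed at no earlier time, and lost the call without any 1 array of 0 or 90 min (adjusted p 0.059 to 0.10).

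The 2 regulators of this pathway moved little. DAL81, for an activator shared with the GABA pathway, was 0.17 and 0.18 higher at 90 min (0.17 ± 0.05, adjusted p = 0.023). DAL82, for the factor that responds to allophanate, was 0.12 and 0.20 higher (0.16 ± 0.05, adjusted p = 0.035). Neither passed before 90 min. The DAL81 call was lost without any 1 array of 0 or 90 min (adjusted p 0.086 to 0.097), and the DAL82 call without 0 min of culture B or any 1 array of 5 or 90 min (0.050 to 0.21).

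Arginine breakdown rose at both steps. CAR2, ornithine aminotransferase, changed by -0.04 and 0.21 at 5 min, 0.14 and 0.42 at 10 min, 0.46 and 0.42 at 15 min, 0.34 and 0.37 at 20 min, 0.30 and 0.43 at 30 min, 0.40 and 0.33 at 45 min, and 0.78 and 0.71 at 90 min. In change from 0 min, the cultures stood apart at 5 and 10 min and nearer from 15 min. The ratios to the reference in A and B were -0.27 and -0.42 at 0 min, -0.31 and -0.20 at 5 min and 0.19 and 0.00 at 15 min. The gap in change thus depends on the 0 min arrays. CAR2 first passed at 15 min (0.44 ± 0.09, adjusted p = 0.014). That call was lost without 0 min of culture A or B or 15 min of culture A (adjusted p 0.053 to 0.090). Its 90 min mean was 0.75 ± 0.09 (1.68-fold, adjusted p = 0.00045).

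CAR1, arginase, moved later, at -0.04 and -0.21 at 10 min, 0.25 and 0.22 at 45 min and 0.57 and 0.53 at 90 min (0.55 ± 0.07, adjusted p = 0.00049). CAR1 passed at 90 min alone. The strain has no CAN1, which encodes the main arginine permease.

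Uptake genes went both ways. GAP1, the general amino acid permease gene, had log2 ratios to the reference of 0.02 and 0.12 at 0 min and 0.55 and 0.65 at 90 min. Its change was 0.04 and -0.02 at 5 min, 0.20 and 0.13 at 10 min, 0.21 and 0.09 at 15 min, 0.20 and 0.06 at 20 min, 0.29 and -0.05 at 30 min, 0.38 and 0.27 at 45 min, and 0.53 in each culture at 90 min. In change from 0 min, culture A was above culture B from 5 to 45 min, and the cultures met at 90 min. The ratios to the reference, which do not take off the 0 min gap, were lower in A at 5 min (0.06 and 0.10), 10 min (0.22 and 0.25) and 90 min. GAP1 passed at 45 min (0.32 ± 0.07, adjusted p = 0.021) and at 90 min (0.53 ± 0.07, adjusted p = 0.00080). The 45 min call was lost without 0 min of culture A or either array of 45 min (adjusted p 0.10 to 0.15).

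The 3 ammonium permease genes did not move together. MEP3, for a low-affinity permease, was lower at every later array, at -0.29 and -0.33 at 45 min and -0.52 and -0.55 at 90 min (-0.53 ± 0.06, adjusted p = 0.00028). MEP1 was -0.29 in both cultures at 90 min (-0.29 ± 0.05, adjusted p = 0.0020). MEP2, for the high-affinity permease that also acts as an ammonium sensor, rose at 90 min by 0.10 and 0.28 (0.19 ± 0.05, adjusted p = 0.015). The MEP2 arrays of the cultures differed by almost as much as the rise itself, whereas those of MEP1 and MEP3 nearly coincided. Without 0 min or 90 min of culture B the MEP2 rise was 0.17 or 0.12 and lost its call (adjusted p 0.090 and 0.10).

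Among the genes of ammonium assimilation, glutamine synthetase (GLN1) rose and the glutamate dehydrogenases diverged. GLN1 was 0.24 and 0.23 higher at 20 min, where it first passed (adjusted p = 0.029, lost without 0 min of culture A or either array of 20 min), and 0.47 and 0.37 higher at 90 min (0.42 ± 0.06, adjusted p = 0.00071). GDH2, the NAD-dependent enzyme that releases ammonium from glutamate, was 0.37 and 0.24 higher at 90 min (0.31 ± 0.05, adjusted p = 0.0011).

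GDH3, an NADP-dependent enzyme that makes glutamate, changed by 0.01 and 0.11 at 5 min, 0.06 and 0.08 at 10 min, 0.08 and 0.04 at 15 min, 0.09 and 0.21 at 20 min, -0.03 and -0.05 at 30 min, -0.23 and -0.16 at 45 min, and -0.52 and -0.45 at 90 min. It lay slightly above 0 min up to 20 min and below it from 30 min in both cultures. The 90 min mean was -0.48 ± 0.04 (adjusted p = 4.6e-05). The 20 min rise of 0.15 (adjusted p = 0.040) lost its call without any 1 of 9 arrays, with adjusted p up to 0.23 without 20 min of culture B. GDH1, the closely related main NADP-dependent enzyme, was at -0.09 and -0.15 at 90 min and GLT1, glutamate synthase, at -0.10 and 0.01; neither passed at any time. GDH1 and GDH3 are paralogs, and the part of shared signal between their probes was not tested.

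**Figure D3:**
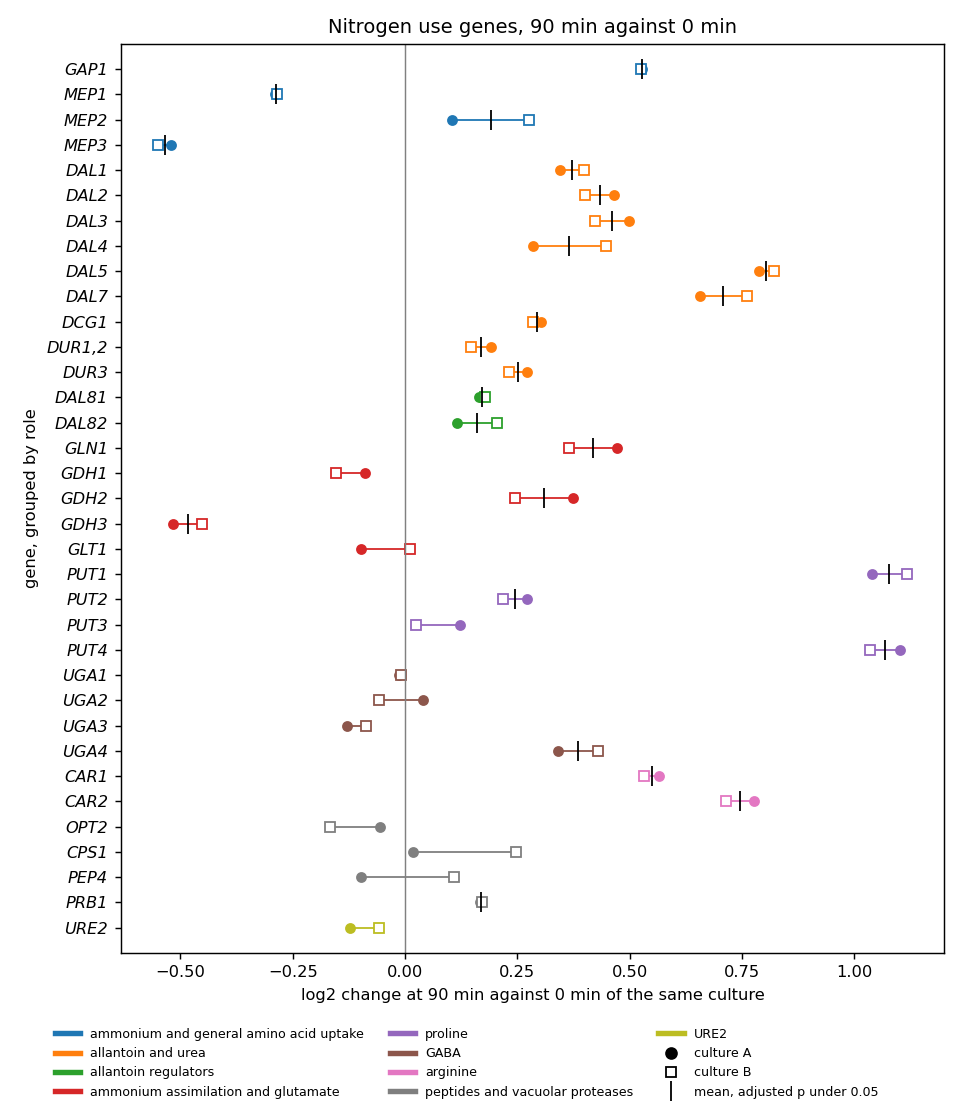
Log2 change at 90 min against 0 min of the same culture (x axis) for each of the 35 nitrogen use genes (y axis), coloured by role. Filled circles are culture A, open squares culture B, and a black tick marks the mean where the adjusted p was under 0.05; 22 ticks lie right of 0 and 3 left of it.

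Of the 4 GABA genes, UGA1 and UGA2 were higher early and near their 0 min level at 90 min, UGA4 was higher late, and UGA3 did not pass. UGA1, GABA transaminase, changed by 0.24 and 0.19 at 5 min, 0.27 and 0.34 at 10 min, 0.29 and 0.36 at 15 min, 0.15 and 0.19 at 20 min, 0.17 and 0.06 at 30 min, 0.03 and 0.04 at 45 min, and -0.01 in both at 90 min. All 8 arrays from 5 to 20 min were above 0 min and UGA1 passed at each of these 4 times, with the largest mean at 15 min (0.32 ± 0.04, adjusted p = 0.0012). The 5 min call was lost without 5 min of culture A, and the 20 min call without any 1 array of 0 or 20 min. UGA2, succinate semialdehyde dehydrogenase, was at 0.17 and 0.11 at 15 min and 0.19 and 0.13 at 20 min (0.16 ± 0.02, adjusted p = 0.0050), and at 0.04 and -0.06 at 90 min. With the red channel alone neither early change passed, at 0.42 for UGA1 at 15 min and 0.01 for UGA2 at 20 min. The GABA permease gene UGA4 went the other way in time, with a first pass at 45 min (0.20 and 0.32, a call lost without 0 or 45 min of culture B) and 0.34 and 0.43 at 90 min (0.38 ± 0.05, adjusted p = 0.00038). UGA3, for the GABA-responsive activator, did not pass at any time, and was at -0.13 and -0.09 at 90 min.

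The vacuolar proteases free amino acids from protein. PEP4, proteinase A, was 0.18 and 0.39 above 0 min at 15 min (0.29 ± 0.07, adjusted p = 0.025), and at -0.10 and 0.11 at 90 min. The 15 min call rested on culture B: it was lost without 15 min of culture B (0.22, adjusted p = 0.16), without 0 min of culture B (0.23, adjusted p = 0.16) and without 0 min of culture A (0.34, adjusted p = 0.051). With the red channel alone it was 0.09 and did not pass. PRB1, proteinase B, was 0.17 higher in both cultures at 90 min (adjusted p = 0.015), a call lost without 0 min of culture B or 90 min of culture A. CPS1, carboxypeptidase yscS, was at 0.02 and 0.25 at 90 min, the widest gap between cultures at that time, and did not pass at any single time.

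OPT2, of the oligopeptide transporter family, was at -0.06 and -0.17 at 90 min and did not pass. URE2, the negative regulator of Gln3, was at -0.12 and -0.06 and did not pass at any time. In all, 7 of the 35 genes passed at none of the 7 times: GDH1, GLT1, PUT3, UGA3, OPT2, CPS1 and URE2. They include 3 genes for regulators, URE2, PUT3 and UGA3. Of the 7, PUT3 (adjusted p = 0.018) and CPS1 (adjusted p = 0.045) passed the F test over all times. The share of all genes that passed at none of the 7 times is not given, so 7 of 35 is not read as few or many.

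A direct test of 90 min against 10 min asked whether early and late levels differed. At 90 min 19 genes were higher than at 10 min and 6 were lower, where 26.3% of all genes were higher and 22.3% lower. The largest differences upwards were PUT1 (0.94 ± 0.09, adjusted p = 6.7e-05), DAL5 (0.75 ± 0.02, adjusted p = 5.8e-08) and DAL7 (0.75 ± 0.05, adjusted p = 6.7e-06). The 6 lower genes were GDH3 (-0.55 ± 0.04, adjusted p = 1.6e-05), MEP3 (-0.41 ± 0.06), UGA1 (-0.32 ± 0.04, adjusted p = 0.00033), MEP1 (-0.22 ± 0.05), PEP4 (-0.20 ± 0.07, adjusted p = 0.044) and UGA2 (-0.14 ± 0.02, adjusted p = 0.0017). PUT3 was 0.19 ± 0.04 higher at 90 than at 10 min (adjusted p = 0.0040), although neither time passed against 0 min. With the red channel alone the differences of PUT3 (-0.11) and MEP1 (0.01) turned sign, and the PEP4 call was lost without any 1 of 9 arrays, with adjusted p up to 0.25 without 90 min of culture A. Both comparisons share arrays with those against 0 min and are no independent repeat of them.

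The rises at 90 min were also read from the red channel alone, scaled to the 75th percentile of each array, since the ratio uses a reference channel that is measured anew on each array. Of the 25 genes past the test at 90 min, 24 kept their sign and 8 passed: PUT1 (1.18), PUT4 (0.89), DAL5 (0.99), CAR2 (0.86), CAR1 (0.61), DAL2 (0.61), DAL7 (0.56) and MEP3 (-0.53). DAL1 was the gene that did not keep its sign, at -0.06 (adjusted p = 0.91). GAP1 was at 0.39 there and did not pass (adjusted p = 0.080). Before 90 min, 0 of the 35 genes passed with the red channel alone by limma, and 2 to 7 genes per time had an unadjusted p under 0.05. DUR3 was then at -0.16 at 10 min. The share of all genes past the test with the red channel alone is not given, so these counts have no background beside them.

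Before induction, the question was how the levels stood against the reference strain. At 0 min 14 of the 35 genes were lower than the reference and 12 higher, and 23.8% of all genes were lower and 25.9% higher. The median ratio of the 35 genes was 0.00. The dye orientation was the same on all 16 arrays, so these ratios carry any bias of a gene towards 1 dye, which the changes over time do not. Without 0 min of culture A the count of 26 was 14, and without 0 min of culture B it was 17.

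The ratios lowest at 0 min were those of GDH3, at -0.82 and -0.81 in cultures A and B (-0.82 ± 0.03, adjusted p = 2.1e-07), and of DUR3, at -0.78 and -0.82 (-0.80 ± 0.05, adjusted p = 5.9e-06). DAL5 (-0.30 and -0.36), CAR1 (-0.36 and -0.32) and CAR2 (-0.27 and -0.42) were also below the reference, the last not past the test without 0 min of culture B (adjusted p = 0.085). By 90 min the ratios of DAL5 (0.49 and 0.46), CAR1 (0.20 and 0.21) and CAR2 (0.51 and 0.30) were above 0, whereas DUR3 was still below it at -0.51 and -0.59. Glutamate dehydrogenase GDH3 ended further from the reference than it began, at -1.33 and -1.27.

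Above the reference at 0 min were GLT1, at 0.59 in both cultures (adjusted p = 3.3e-05), and UGA4, at 0.65 and 0.51 (adjusted p = 8.9e-06). OPT2 had a ratio of 2.30 and 2.10 (2.20 ± 0.13, adjusted p = 2.8e-06), with red signals of 247 and 215 and green signals of 46.2 and 44.7. Its green signal was just under the floor of 50 in both, so the ratio depends on the floor chosen. With a floor of 200, above both green signals and near the red, it was 0.21 and did not pass (adjusted p = 0.10). The highest value under the alternatives that kept all arrays was 2.34. PUT1, PUT4 and GAP1, with large rises later, began near the reference, between 0.02 and 0.16.

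**Figure D4:**
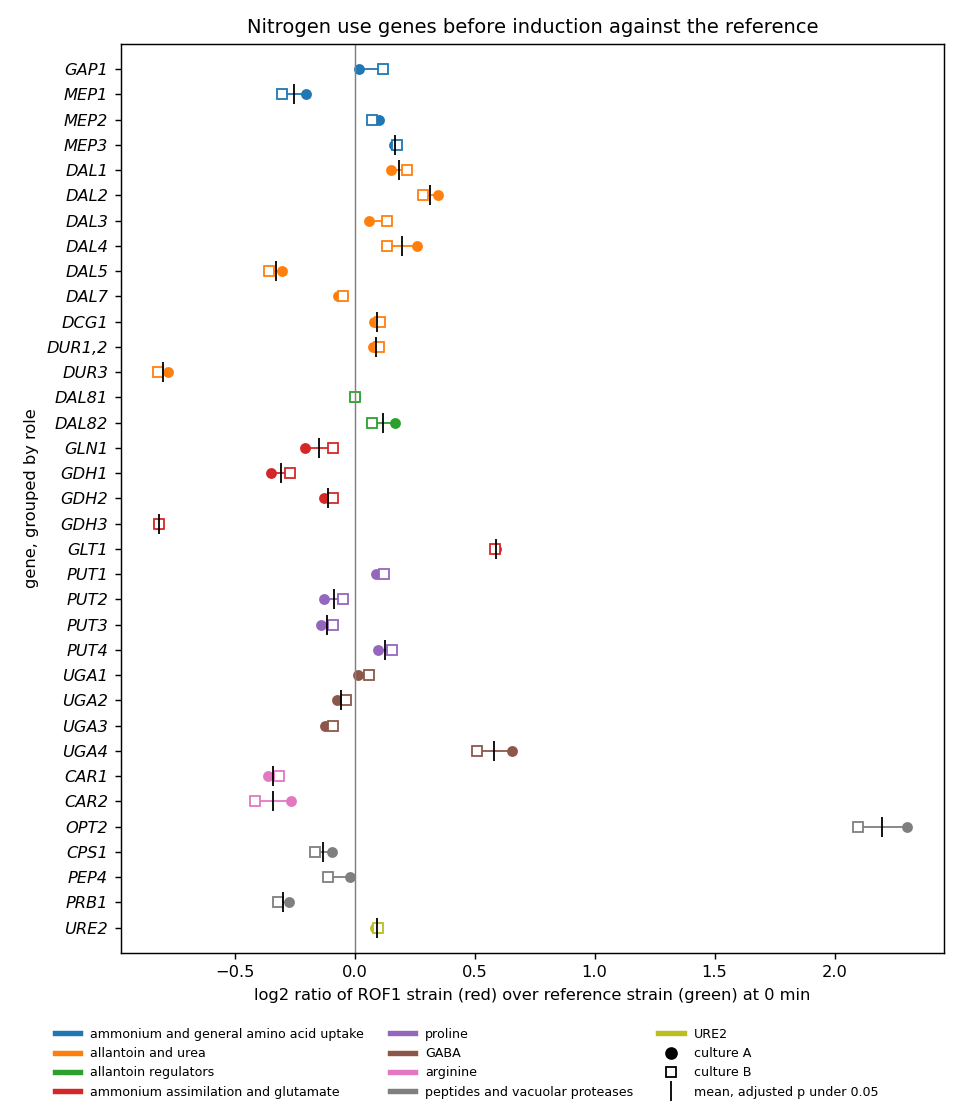
Log2 ratio of the ROF1 strain (red) over the reference strain (green) at 0 min (x axis) for each of the 35 nitrogen use genes (y axis), coloured by role; filled circles are culture A, open squares culture B, and a black tick marks the mean where the adjusted p was under 0.05. GDH3 and DUR3 lie lowest, near -0.80, and OPT2 lies highest at 2.20, where the green signal was under the floor of 50.

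Of a list of 46 other genes of nitrogen use and its control, 10 were higher (21.7%) and 8 lower (17.4%) at 90 min, with a median change of 0.01; these shares are near those of all genes, 20.7% and 20.0%. The counts of its groups stand against the same background, and no group was tested against it. Among the 4 GATA factor genes, DAL80, for the repressor of many nitrogen genes, rose by 0.63 ± 0.04 (adjusted p = 1.1e-05) and GLN3, for the activator, fell by 0.24 ± 0.06 (adjusted p = 0.013). GAT1 and GZF3 were at -0.07 and -0.12 and did not pass. DAL80 first passed at 45 min (0.26 ± 0.04, adjusted p = 0.0039), as did DAL5 and PUT1.

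Of 14 nitrogen signalling genes, 3 rose and 1 fell at 90 min. NPR3, of the complex that restrains TORC1, rose by 0.32 ± 0.04 (adjusted p = 0.00025), and RSP5, the ubiquitin ligase that directs permeases such as Gap1 to breakdown, fell by 0.27 ± 0.05 (adjusted p = 0.0032). Of 5 amino acid sensing genes, SSY5 (-0.21) and SSY1 (-0.12) fell and STP2 (0.15) rose. Of 7 genes of arginine and proline control and supply, 3 fell and 0 rose by limma (4 and 0 at an unadjusted p under 0.05); the largest fall was that of ARG80 (-0.40 ± 0.07, adjusted p = 0.0026), for a regulator of arginine genes.

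Among 8 other scavenging enzymes, the 4 genes for secreted asparaginase, ASP3-1, ASP3-2, ASP3-3 and ASP3-4, were 0.66, 0.49, 0.62 and 0.47 higher at 90 min. They are near-identical copies, so their probes cannot be taken as 4 separate measurements. ASP1, the cytosolic asparaginase, was lower at all 7 times, from -0.23 ± 0.02 at 5 min (adjusted p = 0.00038) to -0.48 ± 0.02 at 90 min (adjusted p = 2.5e-06). Of 8 other vacuolar hydrolase and inhibitor genes, 4 were higher at 10 and 15 min, 6 at 20 min and 1 at 90 min, where 11.6%, 9.01%, 7.96% and 20.7% of all genes were higher. PAI3, the inhibitor of proteinase A, was highest at 15 min (0.70 ± 0.06, adjusted p = 0.00023) and stood at -0.10 at 90 min, close in time to the early rise of PEP4 and UGA1.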

How the data were processed

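RNA was measured on 16 two-colour Agilent arrays. The authors extracted spots with Feature Extraction; per the file headers each processed intensity was background subtracted and dye normalized, and they deposited a table of log2 ratios made after a floor of 50, which matched the ratios recomputed here (0 of 200192 spots differed by over 1e-04).

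Signals were floored at 50, outlier spots (3 to 183 per array) left out, and spots averaged per probe (the brightest probe for 29 genes with several). Genes with red well above background on at least 2 arrays were tested with limma 3.58.1 (R 4.3.3) and Benjamini-Hochberg adjustment. The fit had 1 coefficient per time and a block for culture (7 residual degrees of freedom). The prior by which limma shares spread between genes had only 0.89 degrees of freedom. The SE and p of a gene therefore rest mostly on its own arrays. Zero spread was found for 264 genes, and the prior without them is not given. With genes held at the floor left out, 26 nitrogen use genes passed at 90 min, among them all 25 of the main fit. The culture letter pairs arrays because each culture was followed over time; deviations of the cultures correlated with r from -0.0465, median 0.148, over 28 pairs of times. Ratios at 0 min were fitted without the block. Raw median spot and background intensity served normexp. The model was tested on simulated data whose spread was set by hand and which held no genes at the floor. Genes with red at the floor, 389 of those tested here, are not covered by that simulation.

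The members, lists and tests were chosen with earlier results of these data known. Genes given in full passed with a change of at least 0.5 in the same direction in both cultures; other members named were chosen by role or after their values were seen. Alternatives were other backgrounds, floors, filters, scalings and variance priors, the red channel alone, no block, minimum changes, and each array or culture left out. Figures used matplotlib 3.10.9. A promoter motif search was not run, since no sequence was used here.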

Additional observations from a re-analysis of the deposited data

Results flagged for a closer look

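DUR3, the urea permease gene, was the only one of the 35 genes that passed the test at both 10 and 90 min in opposite directions, with a difference between these times that also passed. Its log2 change was -0.16 and -0.29 at 10 min and 0.27 and 0.23 at 90 min in cultures A and B, and the difference was 0.4767 ± 0.04 (SE, n = 2, adjusted p = 6.5e-05 by limma). With 2 arrays per time, a single array far from its group could not be looked for in the values of a gene. The 10 min array of culture B had the lowest median red signal of all arrays (931). Without it the DUR3 change at 10 min was -0.18. As given above, the 10 min call was lost without that array or without 0 min of culture B. The share of all genes that met the same rule is not given, so it is not known how common such a reversal was.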

How the results depend on the processing

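With the red channel alone, 6 genes changed over time, 0 passed by limma at each time from 5 to 45 min (2 to 7 at an unadjusted p under 0.05), 8 at 90 min (7 higher, 1 lower, 1 of them 2-fold) and 10 between 90 and 10 min. With a minimum change of 0.5 the counts were 8 over time, 0 from 5 to 30 min, 2 at 45 min, 8 at 90 min (7 higher, 1 lower), 6 between 90 and 10 min and 5 at 0 min against the reference; with a minimum of 1 they were 2, 0 from 5 to 45 min, 2 at 90 min (2 higher, 0 lower), 0 and 1. At 10 min, 4 calls became 8 with normexp and loess, 7 with the strict filter and 7 with genes held at the floor left out, a setting chosen after seeing the data. At 30 min, 5 calls became 8 with normexp and loess, 3 with no floor and 3 with a floor of 200. Normexp and loess gave 5 lower genes at 90 min in place of 3. Without the replicate block 3 genes passed at 30 min and 25 at 90 min, with no other count moved by over 1.5 times and 6 of the 68 called values of single genes losing their call. Leaving out 1 array gave 2 to 5 calls at 5 min, 3 to 8 at 10 min, 3 to 11 at 15 min, 3 to 12 at 20 min, 1 to 10 at 30 min, 5 to 20 at 45 min, 20 to 26 at 90 min and 14 to 27 at 0 min against the reference. The causes were not tested. Of 376 counts under alternatives, 301 stayed within 1.5 times. Shares of all genes under the alternatives are not given. For 68 called values of single genes, the alternatives gave 2084 values, of which 1836 kept direction and call, 244 lost the call and 4 reversed, all 4 with the red channel alone: DAL1 at 15 min (-0.14) and 90 min (-0.064), and 90 against 10 min for MEP1 (0.014) and PUT3 (-0.11). Many calls made before 90 min therefore rest on few arrays, and with 2 cultures small changes near the threshold were not resolved. Among the single-gene calls before 90 min that were followed, some were kept whichever 1 array was left out. These were PUT4 at each earlier time, PUT1 at 45 min, UGA1 at 10 and 15 min and UGA2 at 20 min. With the red channel alone they did not pass.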
